A study of Mus musculus with 4 samples.

Results

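The 42 genes described here encode proteins that carry a cell through mitosis: cyclins and kinases, spindle checkpoint proteins, motor proteins of the spindle, kinetochore subunits, the chromosomal passenger complex and the proteins of cytokinesis. They were chosen by symbol for these roles, and all 42 were found once among the 55487 genes of the count table. Every one of them had at least 10 counts summed over the libraries, the limit for testing. The set was chosen for these roles and not by its response to pigment epithelium-derived factor (PEDF), although earlier results of these data were known.

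The samples were mouse embryonic fibroblasts (MEFs), primary cells grown out of embryos, which stop dividing and turn senescent after repeated passage. All MEFs were wild-type and were cultured in DMEM with 10% fetal bovine serum. The sample labels give passage 2 for these cells and the study's text gives passage 3. The 2 PEDF libraries came from cells given PEDF, a secreted protein purified from mammalian cells, at 100 ng/mL for 24 h, and the 2 control libraries came from cells without it. Experiments 1 and 2 each supplied 1 control and 1 PEDF library, and the embryos differed between the experiments. The study followed senescence in PEDF-treated MEFs, so the comparison asks whether transcripts of the machinery of division differed with PEDF at 24 h. P-values below measure only the spread between these 4 libraries.

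In a dividing cell, cyclin-dependent kinase 1 with cyclins A and B starts mitosis, and Polo-like and Aurora kinases help to build the spindle and to attach it to kinetochores. The spindle checkpoint holds the cell until every kinetochore is attached. CDC20 and the anaphase-promoting complex then mark securin and cyclin B for destruction, and the cell divides. Transcripts of these genes accumulate in G2 and mitosis and are low in cells that have left the cycle, so in a mixed culture their level depends on the share of cycling cells. In RNA from whole cultures, fewer cycling cells and less RNA per cycling cell cannot be told apart.

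Many mitotic promoters carry a cell cycle genes homology region (CHR), a site bound by the MuvB complexes with B-MYB and FOXM1, near CCAAT boxes, which are bound by NF-Y. RefSeq promoter windows, each 250 bases before to 50 bases from a transcript start in GRCm38.p6, were matched by symbol for 34 of the 42 genes, with 37 windows in all. Ccna2, Aurkb, Cdc25c, Foxm1, Kif20a, Spc24, Incenp and Tpx2 had no window among them. The CHR core TTTGAA was searched on both strands and was present in 28 of the 37 windows (75.7%), compared with 17.9% of all 32851 windows of that length. The CCAAT box, searched as CCAAT on both strands, was also present in 28 windows, compared with 37.4% of all windows. Both were found together in 25 windows (67.6%) of 22 genes, compared with 6.95% of all windows. The 2 motifs can share 1 base. A CHR core lay within 50 bases of the start in 25 windows of 23 genes, compared with 4.94% of all windows. The promoters of 4 genes are shown. They are the 4 with the highest TPM that hold both motifs in the stretch printed, out of the genes that the naming rule given with the methods picks. Each runs from 200 bases before the start to 30 bases from it, 5′ to 3′ on the strand of the gene, which is the minus strand in every case, and capitals mark the CHR cores and CCAAT boxes on either strand (TTCAAA and ATTGG are their reverse complements). The stretches are chr4:118437314-118437543 for Cdc20, chr11:99024160-99024389 for Top2a, chr7:135716350-135716579 for Mki67 and chr10:69352883-69353112 for Cdk1.
Cdc20: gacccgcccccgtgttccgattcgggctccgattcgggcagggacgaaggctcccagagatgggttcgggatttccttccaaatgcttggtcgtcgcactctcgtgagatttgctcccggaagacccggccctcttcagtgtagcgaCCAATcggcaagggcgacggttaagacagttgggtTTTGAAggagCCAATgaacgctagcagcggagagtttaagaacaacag
Top2a: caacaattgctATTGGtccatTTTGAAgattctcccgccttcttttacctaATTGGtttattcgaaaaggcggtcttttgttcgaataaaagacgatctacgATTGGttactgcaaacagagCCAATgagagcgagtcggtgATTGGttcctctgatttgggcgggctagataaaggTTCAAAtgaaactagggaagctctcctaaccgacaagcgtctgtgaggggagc
Mki67: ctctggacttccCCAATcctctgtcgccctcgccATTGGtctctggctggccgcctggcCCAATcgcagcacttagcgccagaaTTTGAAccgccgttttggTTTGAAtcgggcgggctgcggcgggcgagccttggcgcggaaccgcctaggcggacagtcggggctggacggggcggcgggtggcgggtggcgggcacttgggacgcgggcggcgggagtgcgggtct
Cdk1: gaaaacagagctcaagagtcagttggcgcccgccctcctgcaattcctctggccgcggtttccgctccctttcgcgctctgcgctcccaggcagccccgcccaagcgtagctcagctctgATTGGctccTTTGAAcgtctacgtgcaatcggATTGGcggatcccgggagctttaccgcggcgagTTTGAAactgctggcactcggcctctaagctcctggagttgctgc
The Cdc20 stretch held 1 CHR core, 18 bases before the start, and that of Top2a held 2 CHR cores, the nearer at 23 bases, with 5 CCAAT boxes. The Cdk1 stretch held CHR cores at 71 and 15 bases before the start, and the Mki67 stretch at 116 and 98 bases. A match is a description of these letters and not evidence of binding.

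The libraries held 14722848 to 18144640 counts. Levels are given as CPM, counts per 1000000 of a library after scaling with edgeR's TMM factors, which lay between 0.983 and 1.01, and levels of different genes are compared in TPM, a scale that the authors divided by gene length and that sums to 1000000 in each library. The cells had the transcripts of fibroblasts. All 10 fibroblast markers were detected, with a summed level of 42400 to 54600 CPM, while 5 macrophage markers summed to 79.2 to 124 CPM, 5 epithelial markers to 27.8 to 33.1 CPM, 5 endothelial markers to 16.0 to 16.7 CPM and 5 skeletal muscle markers to 268 to 366 CPM. None of these markers was at 0 in all libraries. No marker had an adjusted p under 0.05 in edgeR without a term for the experiment. With the experiment as a block, 6 of the fibroblast markers had one (Fn1, Col1a1, Col1a2 and Pdgfrb lower and Dcn and Lum higher with PEDF), as did Lyz2 of the macrophage list and Acta1 of the muscle list, both higher, where 2.07% of all genes were lower and 1.67% higher. The summed fibroblast markers were 46800 and 54600 CPM in control and 42400 and 45700 CPM in PEDF libraries, the macrophage markers 124 and 79.2 against 120 and 99.0 CPM, and the muscle markers 268 and 348 against 296 and 366 CPM. Their part in the mitotic values was not tested.

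The mitotic genes were transcribed in every library. Counts of single genes ran from 163 to 6203, far above the 3 counts that a library without a read allows. Their mean TPM ran from 3.91 for Kif18a, a kinesin that limits chromosome movement at the metaphase plate, to 194 for Cdc20, with a median of 33.0, compared with 9.19 over all genes tested. Cdc20 was followed by Plk1, the Polo-like kinase (118 TPM), Top2a, the topoisomerase that untangles sister chromatids (105 TPM), Kif20a, a kinesin of the central spindle (101 TPM), Ccnb2, a B cyclin (99.3 TPM), and Ube2c, the ubiquitin-conjugating enzyme of the anaphase-promoting complex (98.5 TPM). The lowest after Kif18a was Cdc25c, a phosphatase that activates CDK1 (9.56 TPM), followed by Cenpf, a kinetochore protein with the longest exons of the set (10.9 TPM). Subunits that work in 1 complex had unequal TPM, 15.2 for Ndc80, 21.9 for Nuf2, 24.2 for Spc24 and 25.5 for Spc25 in the NDC80 complex of the outer kinetochore. In CPM, which is not divided by length, the order was another, with control means of 33.7, 47.9, 20.5 and 27.0. Their summed exons are 6493, 6341, 2573 and 3188 bases long, so the order in TPM depends on the length used.

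**Figure D1:**
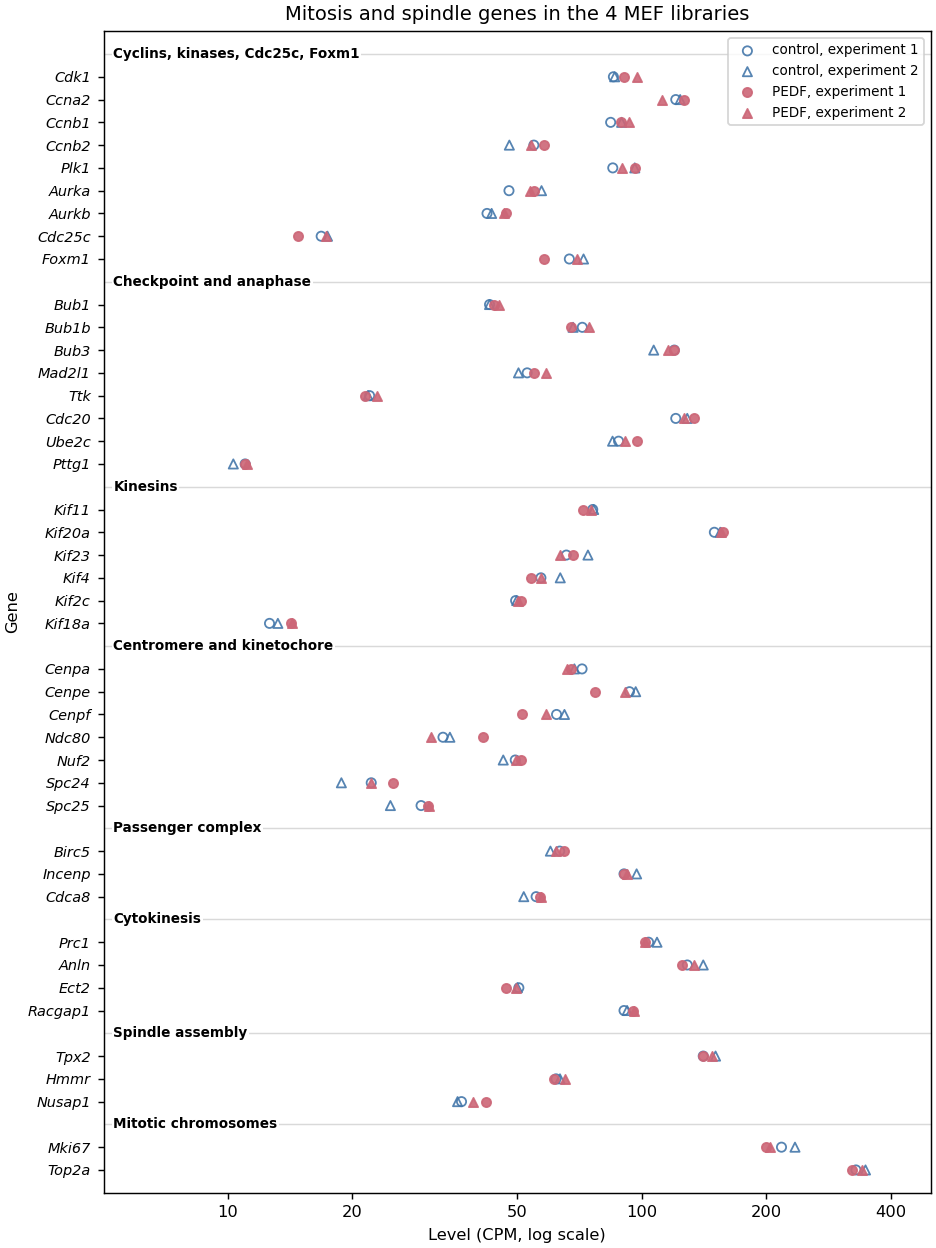
Level of each of the 42 genes in CPM on a log scale, in the control (open) and PEDF (filled) libraries of experiment 1 (circles) and experiment 2 (triangles), grouped by role. The 4 points of a gene lie close together, and both PEDF points lie above both control points for 13 genes and below them for 8.

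The level of the set as a whole was nearly equal with and without PEDF. In control, the 42 genes summed to 3281 CPM in experiment 1 and 3372 CPM in experiment 2. With PEDF, the sums were 3297 and 3339 CPM. The ratio of PEDF to control was 1.005 in experiment 1 and 0.99 in experiment 2. The median log2 fold change was 0.036, compared with 0.001 over all 19384 genes tested, with values from -0.21 for Cenpf to 0.20 for Spc24, 26 above 0 and 16 below.

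No mitotic gene passed the test of PEDF against control. In edgeR's quasi-likelihood test with treatment as its only term, 0 of 42 had an adjusted p under 0.05 (0.00516% of all genes tested did, which was 1 gene), and the adjusted p-values lay between 0.696 and 0.98. An unadjusted p under 0.05 was found for 2 genes that were lower with PEDF, Cenpf and Mki67, where 3.66% of all genes were lower at that limit, and for 0 genes that were higher, where 3.22% were. DESeq2 without a covariate and limma each gave 0 mitotic genes at an adjusted p and 0 at an unadjusted p under 0.05. Of all genes, 3 of 26183 in DESeq2 and 0 of 19384 in limma had an adjusted p under 0.05. The 95% intervals of the edgeR fold changes ran from -0.39, the lower bound for Cenpf, to 0.46, the upper bound for Spc24, on the log2 scale. All 42 intervals lay within a 1.5-fold change in either direction, 33 lay within 1.25-fold, and 40 held 0. With the experiment as a block, so that each PEDF library is set against the control of its own embryos, 1 gene passed, Mki67, which was lower with PEDF, where 2.07% of all genes were lower, and 0 genes were higher, where 1.67% of all genes were. With this block an unadjusted p under 0.05 was found for 4 higher genes, Cdk1, Mad2l1, Ube2c and Nusap1, where 7.18% of all genes were higher at that limit, and 3 lower genes, Cenpe, Cenpf and Mki67, where 7.38% were lower, and 35 of the 42 intervals held 0. In DESeq2 with the same block no mitotic gene passed, where 119 of 26183 genes did, and the smallest adjusted p given was 0.291. That fit gave no adjusted p to some of the 42 genes, among them Cdk1, Ccnb1, Plk1, Foxm1 and Bub1, which therefore could not pass.

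Both PEDF libraries lay above both control libraries for 13 of the 42 genes (31.0%), compared with 18.9% of all genes tested, and below them for 8 (19.0%), compared with 18.4%. The 13 were Cdk1, Aurkb, Bub1, Mad2l1, Ube2c, Kif20a, Kif2c, Kif18a, Nuf2, Spc25, Cdca8, Racgap1 and Nusap1. The 8 were Kif11, Kif4, Cenpa, Cenpe, Cenpf, Prc1, Ect2 and Mki67. For the other 21 genes the groups overlapped.

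**Figure D2:**
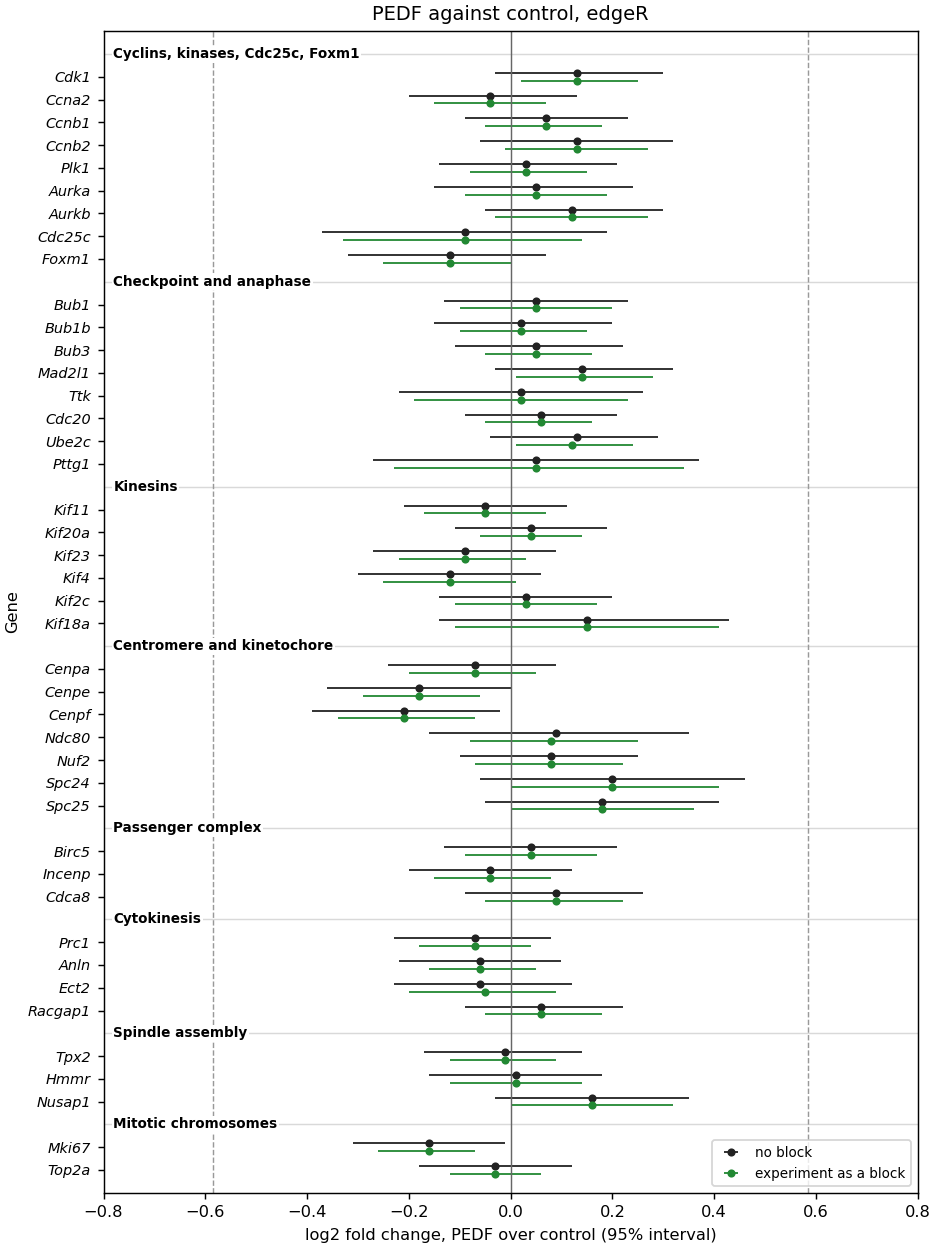
Log2 fold change of each gene, PEDF over control, with its 95% interval from edgeR without a block (black) and with the experiment as a block (green), grouped by role; dashed lines mark a 1.5-fold change. All intervals without a block lie between -0.39 and 0.46, and the green intervals lie below 0 for Cenpe, Cenpf and Mki67 and above 0 for Cdk1, Mad2l1, Ube2c and Nusap1.

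The regulators that start and time mitosis were 9 genes, of which 6 had a log2 fold change above 0 and none passed the test (range -0.12 to 0.13, median 0.05). Cdk1, the kinase at the centre of mitotic entry (chr10:69335146-69352938, minus strand), had 85.5 CPM in the control library of experiment 1 and 86.1 CPM in that of experiment 2, and 90.8 and 97.5 CPM in the PEDF libraries, in this order here and below. The groups did not overlap, and the log2 fold change was 0.13 (SE 0.08, edgeR adjusted p = 0.756). Its partner Ccnb1, cyclin B1, had 84.2 and 89.5 CPM in control and 89.0 and 93.1 CPM in PEDF libraries, with a log2 fold change of 0.07 (SE 0.08, edgeR adjusted p = 0.886). Control and PEDF values of Ccnb1 overlapped. Plk1, which acts at entry, at centrosomes and at kinetochores, had 85.2 and 96.3 CPM in control and 96.4 and 89.6 CPM in PEDF libraries (log2 fold change 0.03, SE 0.08, edgeR adjusted p = 0.948). Plk1 was thus higher with PEDF in experiment 1 and lower in experiment 2. Foxm1, the transcription factor that activates many of the other genes here, had 66.9 and 72.4 CPM in control and 58.1 and 69.8 CPM in PEDF libraries. Its value with PEDF was the lower one in each experiment, but the groups overlapped, and the log2 fold change was -0.12 (SE 0.09, edgeR adjusted p = 0.802). Cdc25c had 16.8 and 17.4 CPM in control and 14.8 and 17.3 CPM in PEDF libraries (log2 fold change -0.09, SE 0.13). The remaining regulators were cyclin A2 (Ccna2), cyclin B2 (Ccnb2) and the Aurora kinases A and B (Aurka and Aurkb), with log2 fold changes of -0.04, 0.13, 0.05 and 0.12. With the length correction described below, these were -0.05, 0.04, -0.01 and 0.08.

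All 8 genes of the spindle checkpoint and of the exit from metaphase had log2 fold changes above 0, between 0.02 and 0.14, and none passed the test. These signs did not hold throughout, since Cdc20 and Pttg1 were below 0 with the length correction described below, Bub1b and Ttk were in limma, and Bub1b, Bub3 and Ttk were when 1 library was left out. Bub1, a checkpoint kinase at kinetochores, had 42.9 and 42.9 CPM in control and 43.9 and 45.1 CPM in PEDF libraries. The PEDF values were the higher ones by a small margin, with a log2 fold change of 0.05 (SE 0.08, edgeR adjusted p = 0.922). Cdc20, which activates the anaphase-promoting complex and is held by the checkpoint, had 121 and 129 CPM in control and 134 and 127 CPM in PEDF libraries (log2 fold change 0.06, SE 0.07, edgeR adjusted p = 0.894). The groups overlapped for Cdc20. The highest log2 fold change of this group, 0.14 (SE 0.08), was that of Mad2l1, which encodes the checkpoint protein MAD2. Its levels were 52.9 and 50.4 CPM in control and 55.0 and 58.9 CPM in PEDF libraries, and the groups did not overlap. Ube2c stood at 88.0 and 85.1 CPM in control and 97.5 and 91.4 CPM in PEDF libraries (log2 fold change 0.13, SE 0.08, edgeR adjusted p = 0.763), also without overlap. With the length correction, the log2 fold changes of Mad2l1 and Ube2c were 0.20 and 0.07. The others were the checkpoint genes Bub1b and Bub3, the checkpoint kinase Ttk and securin (Pttg1), with log2 fold changes of 0.02, 0.05, 0.02 and 0.05.

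The 6 kinesins split evenly, with 3 log2 fold changes above 0 and 3 below. Kif18a had 12.6 and 13.2 CPM in control and 14.2 and 14.3 CPM in PEDF libraries, which did not overlap (log2 fold change 0.15, SE 0.14, edgeR adjusted p = 0.856). Kif4, a chromosome-bound kinesin on the X chromosome, had 57.1 and 63.6 CPM in control and 54.1 and 57.0 CPM in PEDF libraries. Its groups were next to each other without overlapping, and the log2 fold change was -0.12 (SE 0.08). Kif11, the motor that pushes the spindle poles apart, Kif23 and Kif20a of the central spindle, and Kif2c, which takes microtubules apart at centromeres, had log2 fold changes of -0.05, -0.09, 0.04 and 0.03.

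The 7 centromere and kinetochore genes held both ends of the range. The lowest log2 fold changes were those of Cenpf and Cenpe, large proteins of the outer kinetochore, Cenpe being a kinesin that carries chromosomes to the spindle equator. Cenpf (chr1:189640606-189688086, minus strand) had 62.3 and 65.1 CPM in control (63.7 ± 1.94, SD, n = 2) and 51.5 and 58.9 CPM in PEDF libraries (55.2 ± 5.23, SD, n = 2). Both PEDF values lay below both control values, and the log2 fold change was -0.21 (SE 0.09, edgeR adjusted p = 0.696), with an adjusted p of 0.058 with the experiment as a block. Cenpe (chr3:135212537-135273611, plus strand) had 93.5 and 96.8 CPM in control and 77.1 and 91.0 CPM in PEDF libraries, again without overlap. Its log2 fold change was -0.18 (SE 0.09, edgeR adjusted p = 0.719), and the adjusted p was 0.0581 with the block. The highest log2 fold changes were those of Spc24 and Spc25, which pair with each other at the inner end of the NDC80 complex. Spc24 had 22.2 and 18.8 CPM in control and 25.0 and 22.2 CPM in PEDF libraries (log2 fold change 0.20, SE 0.12, edgeR adjusted p = 0.763). Spc25 had 29.3 and 24.7 CPM in control and 30.4 and 30.6 CPM in PEDF libraries (log2 fold change 0.18, SE 0.11, edgeR adjusted p = 0.763). The PEDF value was the higher one in both experiments for either gene, and the groups did not overlap for Spc25. The other 2 subunits of the complex, Ndc80 and Nuf2, had log2 fold changes of 0.09 (SE 0.12) and 0.08 (SE 0.08), and Cenpa, the histone H3 variant of centromeres, had -0.07 (SE 0.08).

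The chromosomal passenger complex corrects faulty attachments, and none of its subunits passed the test. Beside the kinase Aurkb (42.3 and 43.4 CPM in control, 47.0 and 46.4 CPM in PEDF libraries), survivin (Birc5) had 63.4 and 60.2 CPM against 65.0 and 62.1 CPM, the scaffold Incenp had 90.7 and 97.3 CPM against 90.9 and 92.2 CPM, and borealin (Cdca8) had 55.6 and 51.9 CPM against 56.9 and 57.0 CPM. The groups did not overlap for Aurkb and Cdca8, and the log2 fold changes of Aurkb, Birc5, Incenp and Cdca8 were 0.12, 0.04, -0.04 and 0.09. Of the 4 cytokinesis genes, Prc1, which bundles microtubules of the midzone, Anln, which scaffolds the contractile ring, and Ect2, the activator of RhoA, had log2 fold changes of -0.07, -0.06 and -0.06, and Racgap1, the partner of Kif23 in centralspindlin, had 0.06. Of the spindle assembly factors, Tpx2, the activator of Aurora A, and Hmmr had -0.01 and 0.01. Nusap1, which binds spindle microtubules near chromosomes, had 36.7 and 35.9 CPM in control and 42.1 and 39.1 CPM in PEDF libraries. These did not overlap, and the log2 fold change of 0.16 (SE 0.09, edgeR adjusted p = 0.748) was the highest after Spc24 and Spc25.

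Mki67, which encodes the proliferation marker Ki-67, a protein that coats mitotic chromosomes, was the only one of the 42 genes to pass any of the edgeR fits that kept all libraries. The gene lies at chr7:135689784-135716361 on the minus strand. It had 218 and 235 CPM in control libraries (227 ± 12.1, SD, n = 2) and 200 and 205 CPM in PEDF libraries (203 ± 3.31, SD, n = 2), so both PEDF values lay below both control values. The log2 fold change was -0.16 (SE 0.07, interval -0.31 to -0.01, unadjusted p = 0.0362, edgeR adjusted p = 0.707). With the experiment as a block the adjusted p was 0.0298, at the same log2 fold change of -0.16 (SE 0.05, interval -0.26 to -0.07). With a correction for gene length added to the block, the log2 fold change was -0.09 and the adjusted p 0.449. Top2a, the other gene of mitotic chromosomes and another common marker of proliferation, had 330 and 348 CPM in control and 322 and 341 CPM in PEDF libraries. Its groups overlapped, and the log2 fold change was -0.03 (SE 0.07, edgeR adjusted p = 0.947). The difference between Mki67 and Top2a in their response was not tested.

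Within the experiments, the ratio of the PEDF to the control library had a median on the log2 scale of 0.035 in experiment 1 (range -0.28 to 0.32) and 0.014 in experiment 2 (range -0.22 to 0.31). It was above 0 in both experiments for 17 genes, below 0 in both for 13, and of opposite sign for 12. Exact 95% binomial intervals for these ratios, which allow for counting error alone, since PCR copies of a read are not independent, held 0 for 32 genes in experiment 1 and for 27 in experiment 2. In experiment 1 they lay above 0 for 6 genes and below 0 for 4, where 13.4% and 14.0% of the 10709 genes with a mean of at least 8 CPM did. In experiment 2 they lay above 0 for 8 genes and below 0 for 7, where 17.6% and 17.5% did. In 5 genes the interval of experiment 1 lay wholly above that of experiment 2, where 3.15% of the 10709 genes did, and in 0 it lay wholly below, where 4.06% did. In each of the 5, PEDF was above control in experiment 1 and below it in experiment 2. Ndc80 had 33.1 and 41.4 CPM in control and PEDF of experiment 1, a log2 ratio of 0.32 (interval 0.15 to 0.50), and 34.4 and 30.9 CPM in experiment 2, a log2 ratio of -0.15 (interval -0.32 to 0.01). Plk1 had log2 ratios of 0.18 (0.07 to 0.29) and -0.10 (-0.20 to -0.01), and Aurka 0.20 (0.06 to 0.35) and -0.09 (-0.22 to 0.04). Ccna2 had 0.07 (-0.02 to 0.16) and -0.15 (-0.24 to -0.06), and Kif23 had 0.05 (-0.08 to 0.18) and -0.22 (-0.34 to -0.11). With 1 library of each kind in an experiment, whether these differences exceed the spread between cultures could not be tested. Mki67 was below control in both experiments, with log2 ratios of -0.12 and -0.20.

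**Figure D3:**
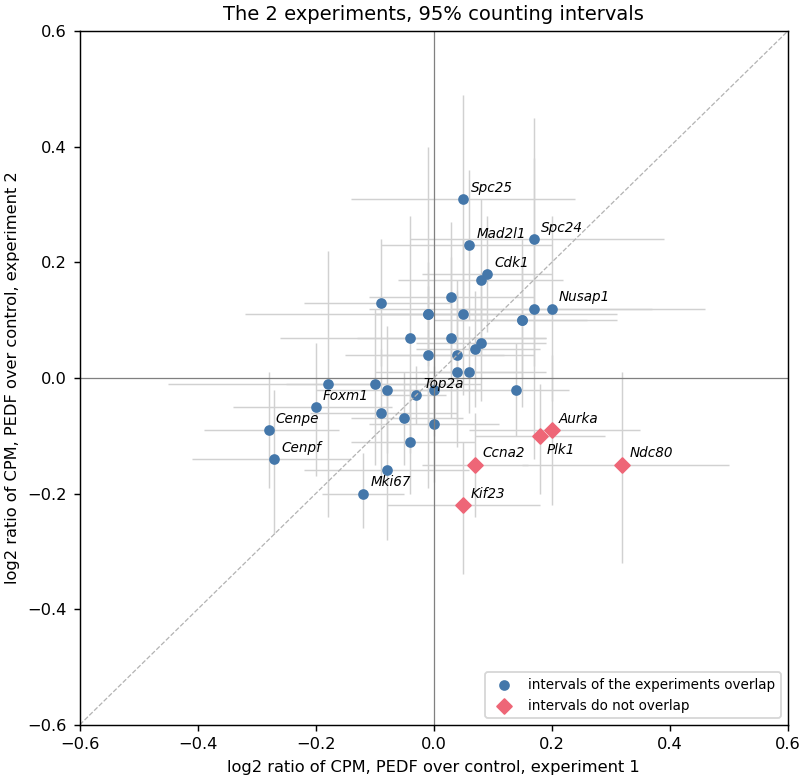
Log2 ratio of CPM, PEDF over control, of each gene in experiment 1 (horizontal) and experiment 2 (vertical), with exact 95% counting intervals in grey and the diagonal dashed. The 5 genes marked with diamonds, Ccna2, Plk1, Aurka, Kif23 and Ndc80, have intervals that do not overlap between the experiments (3.15% of all genes with a mean of at least 8 CPM differ in this direction) and lie at the lower right.

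The size of the change with PEDF moved with the length of the gene. The summed exons of the 42 genes ran from 1531 bases for Ccnb2 to 15433 bases for Cenpf, with a median of 4926 bases. They join the exons of all annotated transcripts of a gene, so they can exceed the length of the transcript in the cells. Across the 42 genes, which share the same 4 libraries and are not independent replicates, the log2 fold change and the logarithm of exon length had a Pearson r of -0.531 and a Spearman rho of -0.469. Over all 10681 genes whose log2 CPM averaged above 3, r was -0.367. The 10 mitotic genes shorter than 4000 bases all had log2 fold changes above 0, with a median of 0.092 (Plk1, Aurka, Cdc20 and Pttg1 were below 0 after the correction below), where 69.9% of the 4411 genes of this length did, with a median of 0.06. Of the 24 genes from 4000 to 8000 bases, 14 were above 0, with a median of 0.02, where 45.2% of the 4149 genes of this length were, with a median of -0.013. Of the 8 genes of 8000 bases or more, only Mad2l1 and Kif18a were above 0, and the median was -0.065, where 24.1% of 2121 genes were above 0, with a median of -0.078. These length limits were chosen with the values known. After a length correction in the fit with the block, r over the 42 genes was -0.087, the medians of the 3 length classes were 0.025, 0.021 and -0.009, and the range of all 42 was -0.12 to 0.21. No mitotic gene then passed in edgeR (smallest adjusted p = 0.125, unadjusted p under 0.05 for 2 higher and 1 lower, where 5.61% of all genes were higher and 6.03% lower), where 2.16% of all genes did. Cenpf and Cenpe, with 15433 and 8620 bases, had log2 fold changes of -0.09 and -0.12 with this correction (edgeR adjusted p = 0.664 and 0.369). Spc24 and Spc25, with 2573 and 3188 bases, had 0.15 and 0.14 (edgeR adjusted p = 0.666 and 0.6). With GC content added to the correction, 20 of the 42 genes were above 0 and 22 below, compared with 26 and 16 without any correction. What makes the change follow length in these libraries was not tested.

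**Figure D4:**
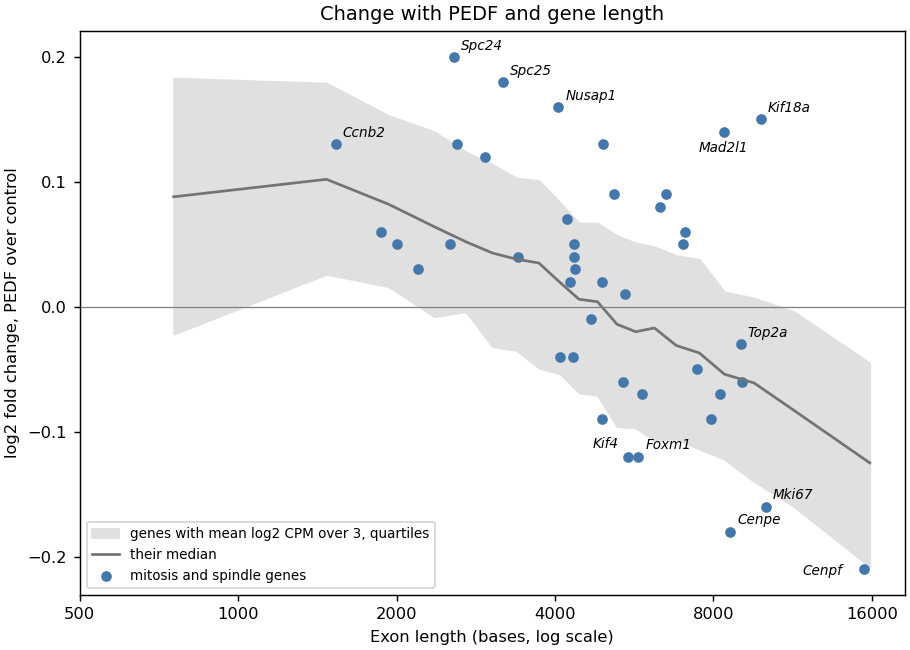
Log2 fold change with PEDF (edgeR without a block) against summed exon length on a log scale for the 42 genes (points), with the median (line) and quartiles (band) of all genes whose log2 CPM averaged above 3. The short genes Spc24, Spc25 and Ccnb2 lie above 0 and the long genes Cenpf, Cenpe and Mki67 below it, with Kif18a and Mad2l1 as long genes above 0.

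The MEF preparations of the experiments were compared in the same way. With treatment as a term, experiment 2 against experiment 1 gave 0 of 42 mitotic genes with an adjusted p under 0.05 in edgeR, where 4.49% of all genes had one. An unadjusted p under 0.05 was found for 6 genes in edgeR (Foxm1, Cenpe and Anln higher in experiment 2, Ccnb2, Bub3 and Ndc80 lower), where 7.53% of all genes were higher and 7.28% lower, and for 0 in DESeq2. The log2 fold changes ran from -0.21 for Spc24 to 0.19 for Foxm1 (edgeR adjusted p = 0.069), with a median of 0.033. The range with PEDF was -0.21 to 0.20.

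Other genes of cell division were compared in the same fit. Of a further 69 mitotic genes (condensins, other kinesins and centromere proteins, cohesin regulators, spindle and cytokinesis proteins), 0 passed the test without the block in edgeR, in DESeq2 or in limma. An unadjusted p under 0.05 in edgeR was found for 1 higher gene, Zwint, where 3.22% of all genes were higher, and 4 lower genes, Kntc1, Hjurp, Espl1 and Cit, where 3.66% were lower. Without control replicate 1, the adjusted p was under 0.05 for 3 of the 69, where it was for 1.71% of all genes. Their median log2 fold change was -0.028, with 28 above 0 and 41 below, and their summed level was 3203 and 3372 CPM in control and 3196 and 3255 CPM in PEDF libraries. In edgeR with the block, 2 passed, both lower with PEDF, where 2.07% of all genes were lower. In DESeq2 with the same block 0 passed, where 119 of 26183 genes did (smallest adjusted p given = 0.116). Hjurp, the chaperone that places CENP-A at centromeres, had 181 and 231 CPM in control and 166 and 184 CPM in PEDF libraries. Its log2 fold change was -0.23 (SE 0.05 and edgeR adjusted p = 0.000479 with the block, SE 0.1 and edgeR adjusted p = 0.719 without it). Espl1, the protease separase that cuts cohesin at anaphase, had 51.1 and 61.0 CPM in control and 43.9 and 49.7 CPM in PEDF libraries. Its log2 fold change was -0.26 (SE 0.07 and edgeR adjusted p = 0.0141 with the block, SE 0.1 and edgeR adjusted p = 0.696 without it). The groups overlapped for Hjurp and did not for Espl1. With the length correction, Hjurp had -0.17 (edgeR adjusted p = 0.0235) and Espl1 -0.20 (edgeR adjusted p = 0.128). Their summed exons are 8331 and 8749 bases long.

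The DNA replication genes, which mark the S phase before mitosis, were 42 genes from the replicative helicase, the polymerases, the clamp and its loader, and nucleotide supply. They summed to 2467 and 2508 CPM in control and 2502 and 2538 CPM in PEDF libraries, ratios of 1.014 and 1.012 in experiments 1 and 2. None passed without the block in edgeR, DESeq2 or limma, and in edgeR 3 higher genes and 1 lower gene had an unadjusted p under 0.05, where 3.22% of all genes were higher and 3.66% lower. With the block in edgeR, 1 passed, higher with PEDF, where 1.67% of all genes were higher. In DESeq2 with the same block 0 passed, where 119 of 26183 genes did (smallest adjusted p given = 0.798). Tyms, thymidylate synthase, had 46.4 and 42.2 CPM in control and 56.7 and 48.2 CPM in PEDF libraries. Its log2 fold change was 0.24 (SE 0.07 and edgeR adjusted p = 0.0354 with the block, SE 0.1 and edgeR adjusted p = 0.696 without it). With the length correction it was 0.26 (edgeR adjusted p = 0.0217). Both PEDF values of Tyms lay above both control values.

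Some counts could be affected by other genes, by reads gained or lost. Exons of 13 of the 42 genes overlap exons of another gene in GENCODE release M21. In 11 the other gene is on the opposite strand, and although the library kit was directional, the strand setting of the counting is not given in the sources used here. Kif20a shares 1271 bases with Cdc23, a subunit of the anaphase-promoting complex that had 2272 to 2797 counts, and Ccna2 shares 510 bases with Exosc9, which had 870 to 988. Plk1 shares 156 bases with Gm44985 (177 to 241 counts), and Cdc20 shares 53 bases with Elovl1 (1509 to 1974 counts). Ccnb1, Ccnb2 and Kif4 have annotated pseudogenes, so some of their reads may have been lost as not uniquely mapped. Mki67, Cenpe and Cenpf are outside these lists.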

How the data were processed

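Polyadenylated RNA of 2 control and 2 PEDF cultures was sequenced from directional libraries. The authors checked, trimmed and aligned the reads to mm10 with FastQC 0.11.7, Trimmomatic 0.38, HISAT2 2.1.0 and SAMtools 1.9, counted them per gene with featureCounts 1.6.3, as their processing notes and text name these tools, and deposited the counts without normalization. They also deposited TPM values, which sum to 1000000 per library. The annotation and strand setting are not given in the sources used here. Coordinates matched GENCODE M21 for 54907 of 55487 genes, and the ratio of count to TPM of the 42 genes followed its summed exon length.

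PEDF was tested against control by edgeR 4.0.16 in R 4.3.3 (TMM factors, robust quasi-likelihood test) in 19384 genes that summed to at least 10 counts, with Benjamini-Hochberg adjustment and without a covariate, as the study names none. Alternatives were DESeq2 1.42.0, limma 3.58.1 on log2(TPM + 1), RLE factors, other filters, the experiment as a block, its combination with natural splines of 5 degrees of freedom on gene length and on GC content of GENCODE transcripts as an offset, and each library left out. The scripts were tested on simulated data. By the labels, embryos differed between experiments, so the replicate number pairs libraries of 1 preparation. Differences between the experiments correlated between control and PEDF libraries (r = 0.423, across 10720 genes whose log2 CPM averaged above 3, which are not independent). Replicates differed by more than counting error (chi-square per gene 9.52 and 6.86).

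The genes, lists and limits were chosen with earlier results of these data known. Any of the 42 genes could be named. Full values were given for genes with an adjusted p under 0.05 in either edgeR fit, the 3 lowest and 3 highest log2 fold changes, the 2 highest and 2 lowest by TPM, and Mki67, Top2a, Cdk1, Ccnb1, Plk1, Bub1, Cdc20 and Foxm1. Outside this list, CPM values were given for Mad2l1, Ube2c, Kif4, Ndc80 and the chromosomal passenger complex genes. Log2 ratios were given for the genes that differed between experiments. These additions were made with the values seen. Of the other lists, genes that passed with the block were named by rule, and the further mitotic genes at an unadjusted p under 0.05 after their values were seen. Fam64a of the further mitotic list was not matched by symbol. Promoters printed were those of the genes picked by this rule that held both motifs, the 4 highest by TPM. That of Plk1, which ranked among them, was left out because its CHR core lies beyond the stretch printed.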

Additional observations from a re-analysis of the deposited data

How the results depend on the processing

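No call among the 42 genes was found in edgeR with RLE factors, no filter or filterByExpr, or in limma. DESeq2 with and without the block gave none, nor did the block with length or length and GC correction. Over all genes, 3 passed in DESeq2 without a covariate and 0 in limma, so 0 calls there cannot set the 42 genes apart. Without a filter 106 passed, in DESeq2 with the block 119, with the length correction 418 and with length and GC 405. DESeq2 with the block gave some of the 42 genes no adjusted p. The experiment as a replicate block in edgeR gave 1 call, Mki67, whose adjusted p ranged from 0.0298 to 1 over all alternatives. The block gave 2 calls among the further mitotic genes and 1 among the DNA replication genes, and changed no other call in these 3 lists. With the length correction, and with length and GC, the further mitotic and the DNA replication lists had 1 call each. Without a replicate, the further mitotic list had 0 to 3 calls, with 3 without control replicate 1, where 1.71% of all genes passed.

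The median log2 fold change of 0.036 was 0.016 with the length correction, -0.002 with length and GC, 0.014 in limma and 0.020 to 0.040 without a replicate, lowest without control replicate 1. Signs were the same in all 13 alternatives for 24 genes. Signs reversed in limma for Bub1b (-0.005), Ttk (-0.006) and Hmmr (-0.012). With the length correction they reversed for Plk1 (-0.038), Aurka (-0.012), Cdc20 (-0.019), Pttg1 (-0.022), Anln (0.002) and Top2a (0.030). With length and GC they reversed for Plk1 (-0.023), Aurka (-0.014), Ttk (-0.003), Cdc20 (-0.007), Pttg1 (-0.041), Birc5 (-0.001), Hmmr (-0.005) and Top2a (0.015). Without a replicate, 15 genes crossed 0, with ranges of -0.130 to 0.054 for Ccna2, -0.051 to 0.124 for Plk1, -0.076 to 0.186 for Aurka, -0.211 to 0.013 for Cdc25c, -0.263 to 0.002 for Foxm1, -0.054 to 0.091 for Bub1b, -0.032 to 0.138 for Bub3, -0.030 to 0.065 for Ttk, -0.173 to 0.000 for Kif23, -0.128 to 0.295 for Ndc80, -0.087 to 0.014 for Incenp, -0.118 to 0.004 for Anln, -0.060 to 0.034 for Tpx2, -0.030 to 0.054 for Hmmr and -0.071 to 0.011 for Top2a. The cause was not tested beyond the values given with gene length. A library left out leaves 1 sample in its group, which is assumed to vary like the other group. Depth limits the low genes most, with 163 counts at the lowest.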
